A study of Mus musculus with 64 samples.

Results

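The mouse mitochondrial genome is a small circular DNA, and its protein genes were followed here across hippocampus libraries of 8 inbred strains. The members were chosen as the genes of the count table whose symbol starts with mt-. They were 13 of 32227 genes, and these 13 are the full set of mitochondrial protein genes in the annotation. The 2 ribosomal RNA genes and 22 transfer RNA genes that complete the 37 annotated mitochondrial genes were not analysed here. All 13 passed the filter on low counts.

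The series holds bulk RNA sequencing of hippocampus from the 8 founder strains of the Collaborative Cross and Diversity Outbred mice, with 64 libraries in 16 groups of strain and sex and 4 libraries in each. The reference genome is that of C57BL/6J. The other classical strains were A/J, 129S1/SvImJ, the obese NZO/HlLtJ and the diabetes-prone NOD/ShiLtJ, and the wild-derived ones were PWK/PhJ, CAST/EiJ and WSB/EiJ. No group carried an induced allele or a treatment in the labels, and the age of the mice was not given. Total RNA came from a TRIzol Plus kit with DNA digested on the column, and the type of the TruSeq library kit was not stated.

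The products of these genes are core subunits of the respiratory chain, and all other subunits are encoded in the nucleus. Most of the genes lie on one strand, are transcribed together as a long RNA and are released as separate mRNAs by cutting at the transfer RNAs between them, and mt-Nd6 lies on the other strand. Neurons depend on this chain for the ATP that restores ion gradients, and mitochondrial transcripts are among the most abundant RNAs of the brain. CAST/EiJ and PWK/PhJ descend from subspecies other than that of the reference, and their mitochondrial DNA is known to differ from it at many bases. The sources used here do not say if each strain's reads were placed on its own sequence or on that of C57BL/6J. Lower RNA and fewer reads placed on a differing sequence therefore cannot be told apart for these strains.

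Neighbouring genes share bases, which bears on how reads between them could be counted. The following ends come from the GENCODE M21 transcripts (GRCm38, strain C57BL/6J), each read 5′ to 3′ on the gene's own strand. Capitals mark the bases shared with the neighbour, 43 for mt-Atp8 and mt-Atp6, 7 for mt-Nd4l and mt-Nd4, and 14 for mt-Nd5 and mt-Nd6. The first pair and the second pair each overlap on the same strand and are known to stay on a single mRNA.
mt-Atp8 end: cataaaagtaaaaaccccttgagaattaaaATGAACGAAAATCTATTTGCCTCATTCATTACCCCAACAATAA
mt-Atp6 start: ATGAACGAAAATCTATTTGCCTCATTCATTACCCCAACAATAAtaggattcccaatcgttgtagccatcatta
mt-Nd4l end: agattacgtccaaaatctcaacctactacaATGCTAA
mt-Nd4 start: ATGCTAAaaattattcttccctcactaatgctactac
mt-Nd5 end: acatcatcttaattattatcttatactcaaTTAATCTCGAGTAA
mt-Nd6 end: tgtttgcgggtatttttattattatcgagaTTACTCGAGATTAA
The mt-Nd5 and mt-Nd6 ends face each other on opposite strands, so their capitals are reverse complements. Strand use in the counting was not stated, and without strand the reads of mt-Nd6 and of RNA antisense to it cannot be told apart.

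Nuclear copies of mitochondrial DNA are a further place for reads to go. A sequence search of the same transcripts found 17 annotated nuclear copies for 11 members, none of which was analysed here. Of the members, 7 had a copy on chromosome 1 at 99% identity or more (mt-Co1, mt-Co2, mt-Atp6, mt-Co3, mt-Nd3, mt-Nd4l and mt-Nd4), and mt-Nd1 and mt-Atp8 had none. The copy covered 31.3% of mt-Co1, 63.6% of mt-Nd4 and 98.99% to 99.87% of the other 5. Levels of these genes are uncertain to the extent that the authors' counting split or dropped reads that match both places. The start of mt-Nd3, the member with the widest strain differences, is shown because its chromosome 1 copy, Gm28438, aligned over 99.1% of the gene's 348 bases with 1 substitution, T3C (the member's base, its position from the first base of mt-Nd3, then the copy's base). The capital marks that base in the first 90 bases.
mt-Nd3 start: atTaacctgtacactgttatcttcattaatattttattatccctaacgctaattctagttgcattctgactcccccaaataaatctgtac

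The 64 libraries held 16607602 to 27759221 counts each (median 22176356.5). Each of 10 markers of hippocampal neurons had counts in every strain, and their summed level averaged 935.9 to 1391 CPM (counts relative to a common library size, scaled by TMM) among strains. A/J male 2 correlated least with its own group (mean r = 0.980 over genes). It shared a shift in the ratios among the mitochondrial genes with 129S1/SvImJ female 1, NZO/HlLtJ male 2 and WSB/EiJ female 1, and C57BL/6J male 4 was high in most members. The labels do not say that the libraries of a group came from separate mice, so p-values measure the spread between these libraries.

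The 13 genes together held between 3.46% and 8.42% of all counts, with a median library at 5.34%. C57BL/6J had the highest strain mean at 6.41% ± 0.923 (SD, n = 8), followed by WSB/EiJ at 6.35% ± 0.495, NOD/ShiLtJ at 6.02% ± 0.415 and NZO/HlLtJ at 5.51% ± 0.503. 129S1/SvImJ had 5.32% ± 0.313 and A/J 4.67% ± 0.238. The 2 wild-derived strains far from the reference were lowest, with 4.17% ± 0.463 in CAST/EiJ and 3.77% ± 0.173 in PWK/PhJ.

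The highest strain mean was 1.70 times the lowest, and every strain overlapped its neighbour in this order. PWK/PhJ libraries lay between 3.46% and 3.99%, with a median of 3.77%, and none reached the lowest of the 48 libraries of the 6 other strains, which had 4.41%. CAST/EiJ libraries lay between 3.74% and 5.08%, with a median of 4.02%, and 2 of the 8 exceeded that value. C57BL/6J libraries lay between 5.60% and 8.42%, with a median of 6.07%. Without male 4, its highest library, the C57BL/6J mean was 6.12%, below that of WSB/EiJ (6.38% without WSB/EiJ female 1). A share of this kind cannot tell apart fewer mitochondrion-rich cells and less mitochondrial RNA per cell.

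**Figure D1:**
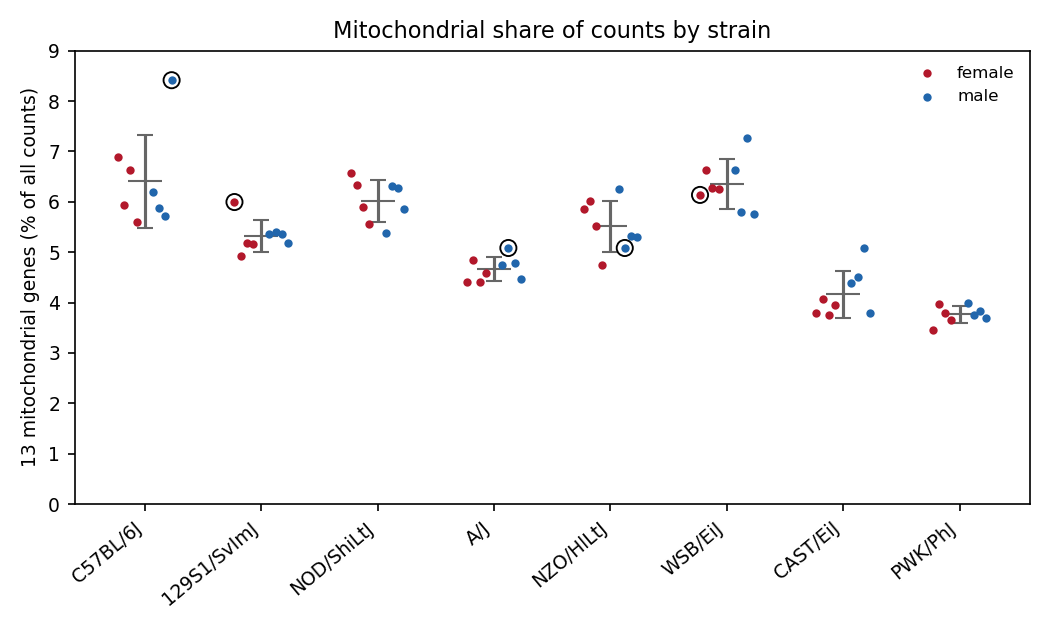
Percent of all counts that fell on the 13 mitochondrial genes (y axis, from 0) in each of the 64 libraries, by strain (x axis) and sex (colour). Grey bars are the mean ± SD of 8 libraries, and black rings mark the 5 libraries that stand apart; PWK/PhJ lies below all libraries of the 6 strains other than CAST/EiJ.

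Cell type markers differed among the same strains. The summed level of 8 oligodendrocyte markers was lowest in PWK/PhJ (3246 ± 309 CPM, range 2773 to 3668) and CAST/EiJ (3315 ± 293, range 2901 to 3862). It was highest in NOD/ShiLtJ (5320 ± 883, range 3559 to 6513) and C57BL/6J (5102 ± 587, range 3824 to 5757). WSB/EiJ, with a high mitochondrial share, had 3889 ± 163 (range 3687 to 4203), and A/J, with a low share, had 4817 ± 631 (range 3821 to 5727). Astrocyte markers (8 genes) had another order, with high sums in NZO/HlLtJ (5859 ± 290.2, range 5471 to 6379), PWK/PhJ (5697 ± 144, range 5497 to 5919) and CAST/EiJ (5669 ± 497, range 4705 to 6280). They were lower in C57BL/6J (4739 ± 115, range 4566 to 4859.6) and lowest in WSB/EiJ (4277 ± 322, range 3499.8 to 4504). Neuron markers were highest in CAST/EiJ (1391 ± 144, range 1207 to 1649) and lowest in NZO/HlLtJ (935.9 ± 70.3, range 808 to 1024.7), with 1182 ± 84.9 in PWK/PhJ. No marker of these 3 lists was at 0 in any strain, and their part in the mitochondrial share was not tested. Markers of the choroid plexus, a tissue that can be carried along in dissection, varied far more within strains than between them (23.9 to 4886 CPM in CAST/EiJ alone).

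All 13 genes differed among the 8 strains in edgeR's quasi-likelihood F test (Benjamini-Hochberg adjusted p below 0.05 over 17382 genes), where 89.2% of all genes tested did. For 7 of them the strain means also spanned a log2 range of 1 or more, against 27.6% of all genes. The median range was 1.0004 for the members and 0.55 for all genes.

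Each strain was then set against the mean of the 7 others, comparisons that share libraries. For the 6 strains other than CAST/EiJ and PWK/PhJ this mean includes both of these, which were low for most members. A call of higher in 1 of the 6 is thus relative to them as well. C57BL/6J was higher for 13 of 13 genes, where 20.4% of all genes were, and WSB/EiJ also for 13 (all genes 22.3%). NOD/ShiLtJ was higher for 12 (21.4%), with mt-Nd4 not called. 129S1/SvImJ was higher for 2, mt-Nd1 and mt-Nd3 (17.6%, a share near that of all genes). For both, its mean lay below those of WSB/EiJ, C57BL/6J and NOD/ShiLtJ and above those of A/J and NZO/HlLtJ. The means were 3808 CPM for mt-Nd1 (WSB/EiJ 5022) and 444 CPM for mt-Nd3 (WSB/EiJ 599.5). 129S1/SvImJ did not differ from the strain next above it (edgeR adjusted p = 0.158 for C57BL/6J in mt-Nd1, 0.460 for NOD/ShiLtJ in mt-Nd3). In C57BL/6J the call of mt-Atp8 (log2 0.17, adjusted p = 0.0298) was lost without the 5 libraries that stand apart (0.08, 0.275) and without its male 4 alone (0.11, 0.212). NZO/HlLtJ was higher for 4 (21.8%) and lower for 2 (16.2%). The 4 included mt-Nd3, for which its mean (383 CPM) lay below those of WSB/EiJ, C57BL/6J, NOD/ShiLtJ and 129S1/SvImJ. They also included mt-Co2 (log2 0.14, edgeR adjusted p = 0.0492). That call was lost with scaling to genes outside the mitochondrial genome (edgeR adjusted p = 0.0540) and without a filter (0.0668). A model of strain and sex without their interaction also lost it (0.0586). A/J was lower for 10 (14.7%), CAST/EiJ was lower for 10 (28.5%) and higher for 1 (28.3%), and PWK/PhJ was lower for 12 (28.8%). In A/J the call of mt-Nd5 (-0.18, adjusted p = 0.0401) was lost without the 5 libraries (-0.13, 0.0753).

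The members' median log2 difference was 0.35 in C57BL/6J, 0.40 in WSB/EiJ, 0.27 in NOD/ShiLtJ, -0.30 in CAST/EiJ, -0.64 in PWK/PhJ and -0.21 in A/J. The median over all genes lay between -0.0028 and 0.0098 in each of the 8 comparisons. Differences of at least 1 on the log2 scale were few. They were mt-Nd3 higher in WSB/EiJ (2.51% of all genes), mt-Nd1 and mt-Nd3 lower in CAST/EiJ (5.22%), and mt-Nd1, mt-Nd2, mt-Nd3 and mt-Nd6 lower in PWK/PhJ (5.6%). All of these large differences were in complex I genes, while smaller ones were shared by most members. The mean set against WSB/EiJ includes the low CAST/EiJ and PWK/PhJ. In the 15 pairs among the 6 other strains, 0 members were called at a difference of 1 or more. The share of all genes at this size in these pairs is not given here, so the 0 shows no trait of the members. There mt-Nd3 in WSB/EiJ exceeded C57BL/6J by 0.02 (edgeR adjusted p = 0.885).

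**Figure D2:**
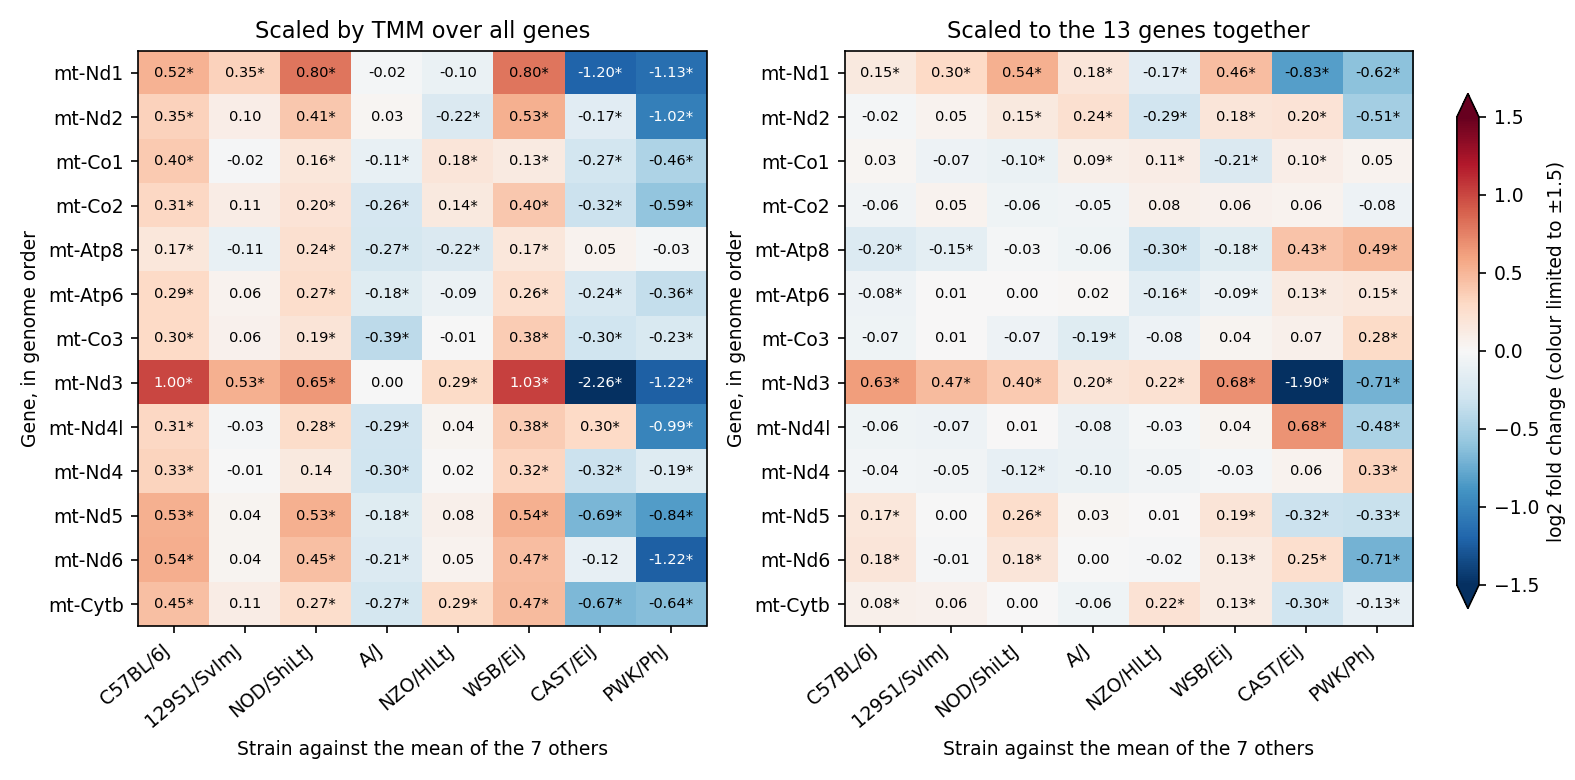
Log2 difference of each mitochondrial gene (rows, in genome order) in each strain (columns) against the mean of the 7 others, with libraries scaled over all genes (left) or to the 13 genes together (right); asterisks mark an adjusted p below 0.05. The 2 most negative cells of CAST/EiJ on both sides are mt-Nd3 (-2.26 and -1.90) and mt-Nd1 (-1.20 and -0.83).

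Complex I (NADH dehydrogenase) takes electrons from NADH and pumps protons, and its 7 mitochondrial members span the membrane arm. The subunit ND3 carries a loop beside the ubiquinone site. In C57BL/6J its gene, mt-Nd3, had 484, 563 and 844 CPM (lowest, median and highest of 8 libraries), in WSB/EiJ 494, 606 and 700.5, and in NOD/ShiLtJ 423, 492 and 507. The levels were 384, 412 and 686 CPM in 129S1/SvImJ, 331, 373 and 428 in NZO/HlLtJ, and 281, 308 and 428 in A/J. PWK/PhJ had 129, 150.2 and 179 CPM, and CAST/EiJ 55.5, 85.9 and 102. All 8 CAST/EiJ libraries lay below all 56 others, as in 1.62% of all genes.

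The difference of mt-Nd3 from the 7 other strains was -2.26 ± 0.0943 on the log2 scale (± SE) in CAST/EiJ (edgeR adjusted p = 1.01e-27). In PWK/PhJ it was -1.22 ± 0.0864 (edgeR adjusted p = 4.98e-18). Its strain means spanned 7.35-fold, from 599.5 ± 62.1 CPM in WSB/EiJ to 81.6 ± 16.2 in CAST/EiJ (SD, n = 8 each), the widest range of the 13. In the order of levels, PWK/PhJ differed from A/J above it and CAST/EiJ below it, and NOD/ShiLtJ, 129S1/SvImJ, NZO/HlLtJ and A/J did not each differ from the next. Strains further apart in this order did differ. NOD/ShiLtJ exceeded A/J by 0.58 ± 0.103 (edgeR adjusted p = 1.28e-05).

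The gene mt-Nd1, for the subunit next to the site where ubiquinone enters, separated CAST/EiJ and PWK/PhJ from the 6 other strains. CAST/EiJ libraries had 1336, 1379 and 1900 CPM (lowest, median, highest) and PWK/PhJ libraries 1346, 1604 and 1686. The other 6 strains began at 2474.5 CPM, the lowest NZO/HlLtJ library, and reached 5885 CPM in C57BL/6J male 4. All 16 libraries of CAST/EiJ and PWK/PhJ lay below the other 48 for mt-Nd1 and mt-Nd3, as in 1.02% of all genes.

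The log2 difference of mt-Nd1 was -1.20 ± 0.0633 in CAST/EiJ (edgeR adjusted p = 6.75e-24) and -1.13 ± 0.0629 in PWK/PhJ (8.37e-23), and the difference between these 2 strains, -0.06 ± 0.0755, did not pass (adjusted p = 0.515). Levels also varied among the other strains. WSB/EiJ (5022 ± 431 CPM) and NOD/ShiLtJ (5014 ± 399) were the highest and did not differ (adjusted p = 0.986). NZO/HlLtJ (2901 ± 336) and A/J (3042 ± 224) were the lowest of the 6.

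The gene mt-Nd2, for an antiporter-like subunit, was lowest in PWK/PhJ, with 1152, 1293 and 1363 CPM, all below the 1719 CPM of the lowest other library, in NZO/HlLtJ. CAST/EiJ had 1823, 1999.5 and 2688 CPM and overlapped with NZO/HlLtJ (1719, 2060 and 2421). The log2 difference from the 7 others was -1.02 ± 0.0681 in PWK/PhJ (edgeR adjusted p = 2.35e-19) and -0.17 ± 0.0632 in CAST/EiJ (0.0171). Without CAST/EiJ male 4 the latter was -0.13 with an adjusted p of 0.0927. CAST/EiJ exceeded PWK/PhJ by 0.75 ± 0.0829 (3.52e-11).

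The small subunit gene mt-Nd4l went opposite ways in the 2 strains. PWK/PhJ libraries had 308, 357 and 394 CPM, and CAST/EiJ libraries 569, 779 and 976. The log2 difference was -0.99 ± 0.0934 in PWK/PhJ (edgeR adjusted p = 2.18e-13) and 0.30 ± 0.0834 in CAST/EiJ (0.00169), where mt-Nd4l was the only member called higher. In females alone the CAST/EiJ difference was 0.13 (edgeR adjusted p = 0.425). The mean set against CAST/EiJ includes the low PWK/PhJ. CAST/EiJ did not differ from WSB/EiJ, C57BL/6J or NOD/ShiLtJ (edgeR adjusted p = 0.622, 0.983 and 0.882). CAST/EiJ exceeded PWK/PhJ by 1.13 ± 0.115 (3.31e-12). In the order of levels, WSB/EiJ, CAST/EiJ, C57BL/6J, NOD/ShiLtJ, NZO/HlLtJ, 129S1/SvImJ and A/J did not each differ from the next, and PWK/PhJ differed from A/J. Strains further apart in this order could differ, as 129S1/SvImJ minus CAST/EiJ was -0.29 ± 0.113 (edgeR adjusted p = 0.0260). PWK/PhJ did not stand apart by every library, since A/J male 2 (304.5 CPM) and 129S1/SvImJ female 1 (356 CPM) reached its range.

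The gene mt-Nd6, alone on its strand, showed the same split for PWK/PhJ. Its libraries had 272, 299 and 336 CPM, all below the 484 CPM of the lowest CAST/EiJ library, and CAST/EiJ ran from there over 562 to 714. The log2 difference was -1.22 ± 0.0731 in PWK/PhJ (edgeR adjusted p = 3.24e-21) and -0.12 ± 0.0664 in CAST/EiJ (0.111). CAST/EiJ exceeded PWK/PhJ by 0.96 ± 0.0879 (6.02e-14). mt-Nd2 and mt-Nd6 were the members for which all PWK/PhJ libraries lay below all 56 others, as in 1.65% of all genes.

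The largest complex I gene, mt-Nd5, for an antiporter-like subunit at the far end of the arm, was lower in both strains. CAST/EiJ libraries had 1305, 1539 and 2081 CPM and PWK/PhJ libraries 1305, 1467 and 1592, while C57BL/6J had 2612, 3341 and 4017 in C57BL/6J. Both overlapped A/J (1582, 2228 and 2401) through A/J male 2, its lowest library. CAST/EiJ also reached above the lowest libraries of NZO/HlLtJ (1950 CPM) and 129S1/SvImJ (1778 CPM). The log2 differences were -0.69 ± 0.0724 and -0.84 ± 0.0733 (edgeR adjusted p = 4.52e-12 and 8.54e-15). The remaining antiporter-like gene, mt-Nd4, differed little, by -0.32 ± 0.0647 in CAST/EiJ and -0.19 ± 0.0640 in PWK/PhJ (3.01e-05 and 0.0102). Its strain means spanned 1.47-fold, and no strain differed from its neighbour in the order of levels. The ends of this order did differ, with C57BL/6J above CAST/EiJ by 0.57 ± 0.0835 (edgeR adjusted p = 5.73e-08).

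**Figure D3:**
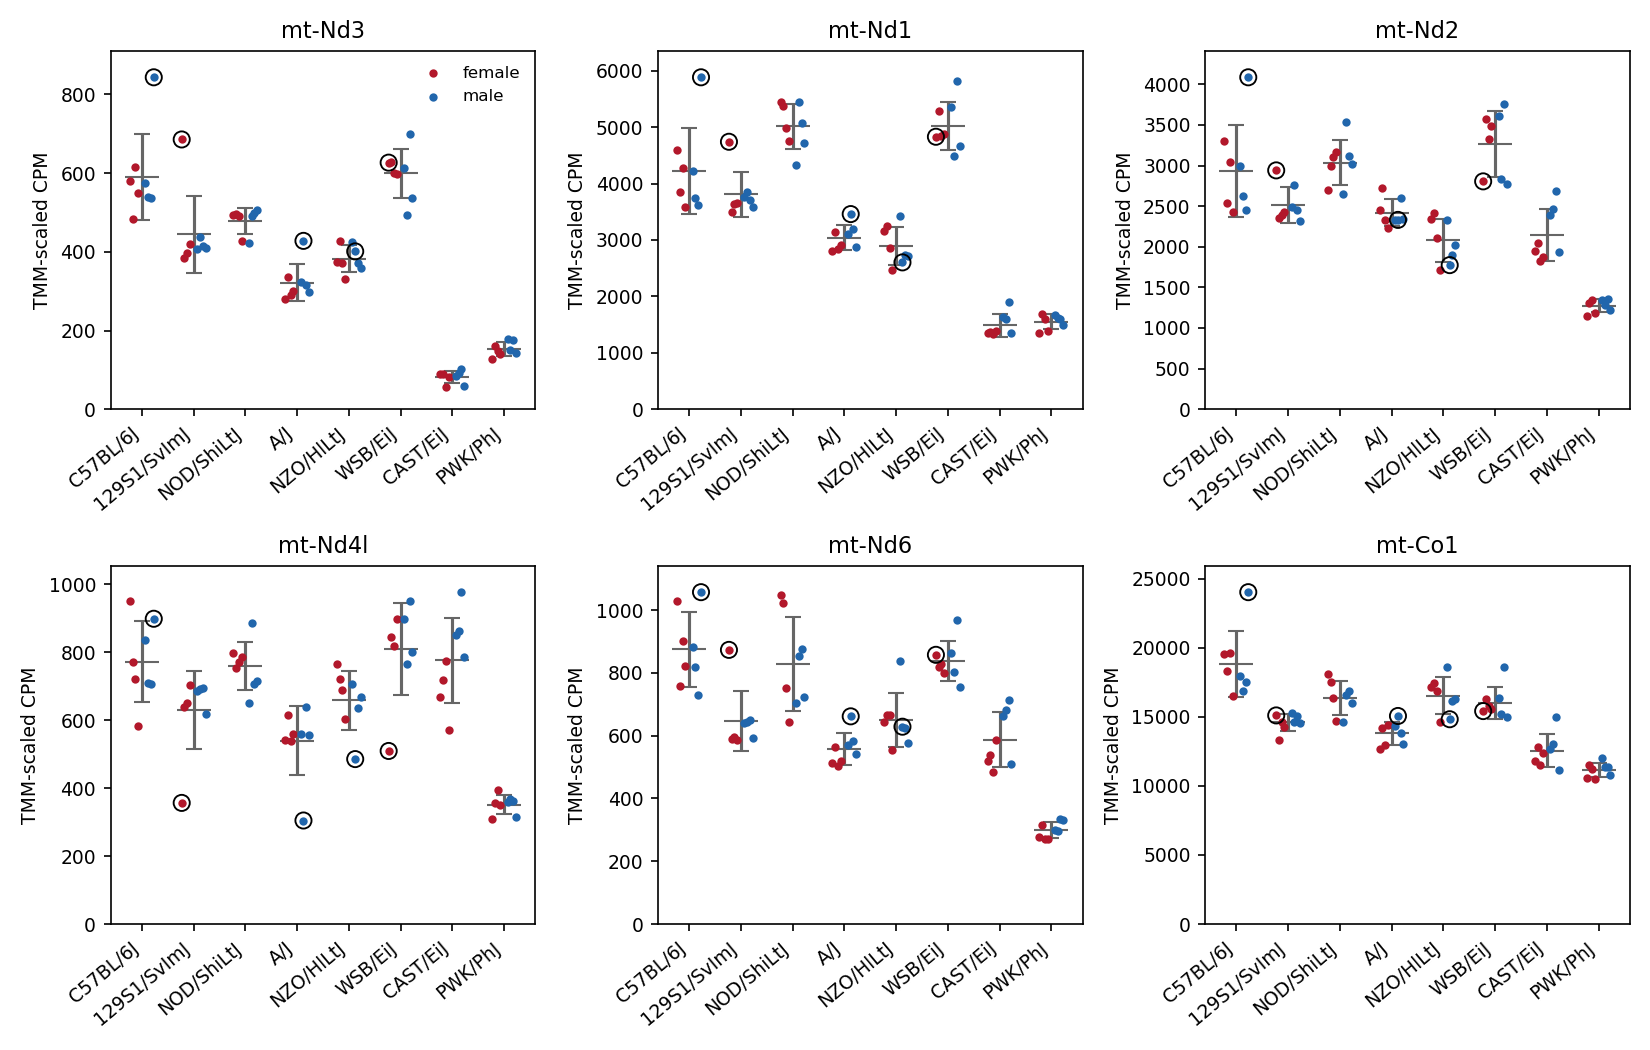
TMM-scaled CPM (y axes, from 0) of 6 mitochondrial genes in the 64 libraries, by strain and sex; bars are the mean ± SD of 8 libraries and rings mark the 5 libraries that stand apart. PWK/PhJ is low for all 6, while CAST/EiJ is as low as PWK/PhJ for mt-Nd1, lower for mt-Nd3, and within the range of the other strains for mt-Nd4l.

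Complex III (cytochrome bc1) passes electrons to cytochrome c, and its single mitochondrial member is mt-Cytb. CAST/EiJ libraries had 2824, 3083 and 3968 CPM and PWK/PhJ libraries 3034, 3304 and 3470. A/J, the next strain, had 3898, 4133 and 4340 CPM, so PWK/PhJ lay below it and CAST/EiJ reached into its range. The log2 differences were -0.67 ± 0.0498 in CAST/EiJ and -0.64 ± 0.0496 in PWK/PhJ (edgeR adjusted p = 9.86e-18 and 7.12e-17), and the 2 strains did not differ from each other (0.721). WSB/EiJ was the highest at 6440 ± 496 CPM, and mt-Cytb spanned 1.996-fold.

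Complex IV (cytochrome c oxidase) reduces oxygen, and its catalytic core is made by mt-Co1, mt-Co2 and mt-Co3. For mt-Co1 the libraries had 16519, 18144 and 24029 CPM in C57BL/6J and 10487, 11308 and 11997 in PWK/PhJ. The log2 difference from the 7 others was -0.46 ± 0.0453 in PWK/PhJ and -0.27 ± 0.0445 in CAST/EiJ (edgeR adjusted p = 3.64e-13 and 5.00e-07). mt-Co2 differed by -0.59 ± 0.0629 and -0.32 ± 0.0614 (5.30e-12 and 1.23e-05). mt-Co3 had another order, with its lowest mean in A/J (4697 ± 423 CPM, log2 -0.39) and a smaller difference in PWK/PhJ (-0.23 ± 0.0555, 0.000292).

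Complex V (ATP synthase) makes ATP from the proton gradient, and mt-Atp6 and mt-Atp8 encode parts of its membrane portion. mt-Atp6 differed by -0.24 ± 0.0585 in CAST/EiJ and -0.36 ± 0.0591 in PWK/PhJ (edgeR adjusted p = 0.000369 and 5.02e-07, in that order). mt-Atp8, which shares its end with mt-Atp6 as printed above, was called in neither, at 0.05 ± 0.0653 and -0.03 ± 0.0657 (0.562 and 0.700). Its libraries had 726, 910.1 and 1102 CPM in CAST/EiJ, 788, 860 and 901.6 in PWK/PhJ, and 764, 904 and 1288 in C57BL/6J, so the 3 strains overlapped. Its strain means spanned 1.36-fold, the narrowest range of the 13.

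CAST/EiJ and PWK/PhJ differed from each other for 6 members, where 52.7% of all genes differed. mt-Nd2, mt-Nd4l, mt-Nd6, mt-Co1 and mt-Co2 were higher in CAST/EiJ and mt-Nd3 was higher in PWK/PhJ. The 7 members with a near-identical chromosome 1 copy had log2 differences from -2.26 to 0.30 (median -0.30) in CAST/EiJ, and the 6 without had -1.20 to 0.05 (median -0.42). In PWK/PhJ the 7 had -1.22 to -0.19 (median -0.46) and the 6 had -1.22 to -0.03 (median -0.93). Large differences thus occurred in both sets, and the part of the copies in them was not tested.

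Levels were also compared between members per length, as CPM per kilobase averaged over all libraries. mt-Co1 (9694), mt-Co2 (8355), mt-Co3 (7673) and mt-Atp6 (7644) were the highest. mt-Cytb (4379), mt-Atp8 (4298), mt-Nd4 (3607), mt-Nd1 (3534), mt-Nd2 (2369) and mt-Nd4l (2228) lay between. mt-Nd5 (1388), mt-Nd6 (1271) and mt-Nd3 (1096) were the lowest, and the highest of these averages was 8.84 times the lowest. Genes that share an mRNA differed on this scale (mt-Atp8 below mt-Atp6, mt-Nd4l below mt-Nd4), so it does not rank numbers of mRNA. The lowest place depended on the strain, being taken by mt-Nd6 in C57BL/6J, 129S1/SvImJ and WSB/EiJ and by mt-Nd3 in the other 5. The highest level was 6.50 times the lowest in WSB/EiJ, where mt-Co2 led, 16.4 times in PWK/PhJ and 34.6 times in CAST/EiJ. In each of the 8 strains the means of the 3 oxidase genes and mt-Atp6 stood above those of all complex I genes on this scale.

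To separate a shift of the whole mitochondrial pool from shifts among its members, the fit was repeated with libraries scaled to the sum of the 13 genes. All 13 then differed among strains, where 97.7% of all genes did, a background raised by the change of scale itself. CAST/EiJ differed for 10 members, 6 higher and 4 lower (all genes 81.1%), and PWK/PhJ for 11, 4 higher and 7 lower (84.7%). Both counts were near the shares of all genes, which the change of scale raises as well. On this scale the values of CAST/EiJ were -1.90 for mt-Nd3, -0.83 for mt-Nd1, -0.32 for mt-Nd5 and -0.30 for mt-Cytb, against 0.68 for mt-Nd4l and 0.43 for mt-Atp8. PWK/PhJ had -0.71 for mt-Nd3 and for mt-Nd6, -0.62 for mt-Nd1, -0.51 for mt-Nd2 and -0.48 for mt-Nd4l, against 0.49 for mt-Atp8 and 0.33 for mt-Nd4. This scaling moves all members of a strain by nearly the same amount, up in CAST/EiJ, PWK/PhJ and A/J and down in the others. In CAST/EiJ mt-Nd1 moved from -1.20 to -0.83 and mt-Nd4l from 0.30 to 0.68, and in WSB/EiJ mt-Nd1 moved from 0.80 to 0.46. The sign of a small difference is therefore set by the centring. Members called lower on the first scale and higher on this one were mt-Nd2, mt-Co1 and mt-Atp6 in CAST/EiJ, mt-Nd4, mt-Co3 and mt-Atp6 in PWK/PhJ, and mt-Co1 in A/J. The reverse, from higher to lower, held for mt-Atp8 and mt-Atp6 in C57BL/6J and mt-Co1 in NOD/ShiLtJ. It also held for mt-Co1, mt-Atp8 and mt-Atp6 in WSB/EiJ.

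Ratios within a library do not depend on its scaling, and 4 were tested by permuting strain labels within sex (100000 resamples, two-sided, adjusted over the 4). The permutation p was 1e-05 for each, the smallest these resamples can give. The log2 ratio of mt-Nd4l to mt-Nd4, genes of the same mRNA, was -2.40 ± 0.0768 in CAST/EiJ, -2.95 ± 0.152 in C57BL/6J and -3.64 ± 0.132 in PWK/PhJ (SD, n = 8). The CAST/EiJ libraries ran from -2.47 to -2.22 and the PWK/PhJ libraries from -3.88 to -3.50, on either side of C57BL/6J (-3.24 to -2.77) with no overlap. In exact permutation tests of 8 against 8 libraries, adjusted over 12 tests, all 3 pairs had p = 0.000233, from the smallest raw p the design allows (0.000155). In linear terms the ratio was 0.190 in CAST/EiJ, 0.129 in C57BL/6J and 0.0800 in PWK/PhJ.

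The ratio of mt-Nd6 to mt-Nd5, genes on opposite strands, followed the same order, with -1.44 ± 0.135 in CAST/EiJ, -1.93 ± 0.144 in C57BL/6J and -2.27 ± 0.129 in PWK/PhJ. CAST/EiJ differed from PWK/PhJ by 0.83 with no overlap (exact adjusted p = 0.000233), and PWK/PhJ overlapped C57BL/6J (0.000746). The ratio of mt-Atp8 to mt-Atp6, the other pair on a shared mRNA, was above that of C57BL/6J in both. C57BL/6J had -2.67 ± 0.0909, while PWK/PhJ had -2.27 ± 0.148 and CAST/EiJ -2.31 ± 0.140 (exact adjusted p = 0.000233 for PWK/PhJ and 0.000414 for CAST/EiJ). CAST/EiJ minus PWK/PhJ was -0.04 (exact adjusted p = 0.584). The ratio of mt-Co3 to mt-Co1 was highest in WSB/EiJ (-1.10 ± 0.0860) and PWK/PhJ (-1.12 ± 0.0323) and lowest in A/J (-1.56 ± 0.0753). CAST/EiJ, at -1.34 ± 0.0799, differed from C57BL/6J by 0.06 (exact adjusted p = 0.205).

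Single libraries moved these ratios within strains. 129S1/SvImJ female 1 had a log2 ratio of mt-Atp8 to mt-Atp6 of -3.14, while the other 7 of its strain ran from -2.70 to -2.62, and its ratio of mt-Nd6 to mt-Nd5 was -1.03 against -2.12 to -1.98. A/J male 2 had -3.10 (others -2.64 to -2.50) and -1.26 (others -2.10 to -2.04), and WSB/EiJ female 1 had -3.003 (others -2.62 to -2.56) and -1.52 (others -2.12 to -1.99). In these 3 libraries 78 cytosolic ribosomal protein genes, short nuclear transcripts, held 1.79%, 1.81% and 1.59% of scaled counts, against 1.13% to 1.22%, 1.13% to 1.25% and 1.12% to 1.22% in the other 7 of each strain. High values were not particular to these 3, since C57BL/6J male 4 held 1.56% (others 1.19% to 1.31%), NZO/HlLtJ male 2 held 1.35% (others 1.18% to 1.27%) and the highest CAST/EiJ library held 1.41% (strain median 1.15%). The part of these genes in the mitochondrial ratios was not tested. Without all 5 libraries the 4 permutation p-values were again 1e-05, and the range of strain means for mt-Atp8 to mt-Atp6 was 0.39 in place of 0.44.

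**Figure D4:**
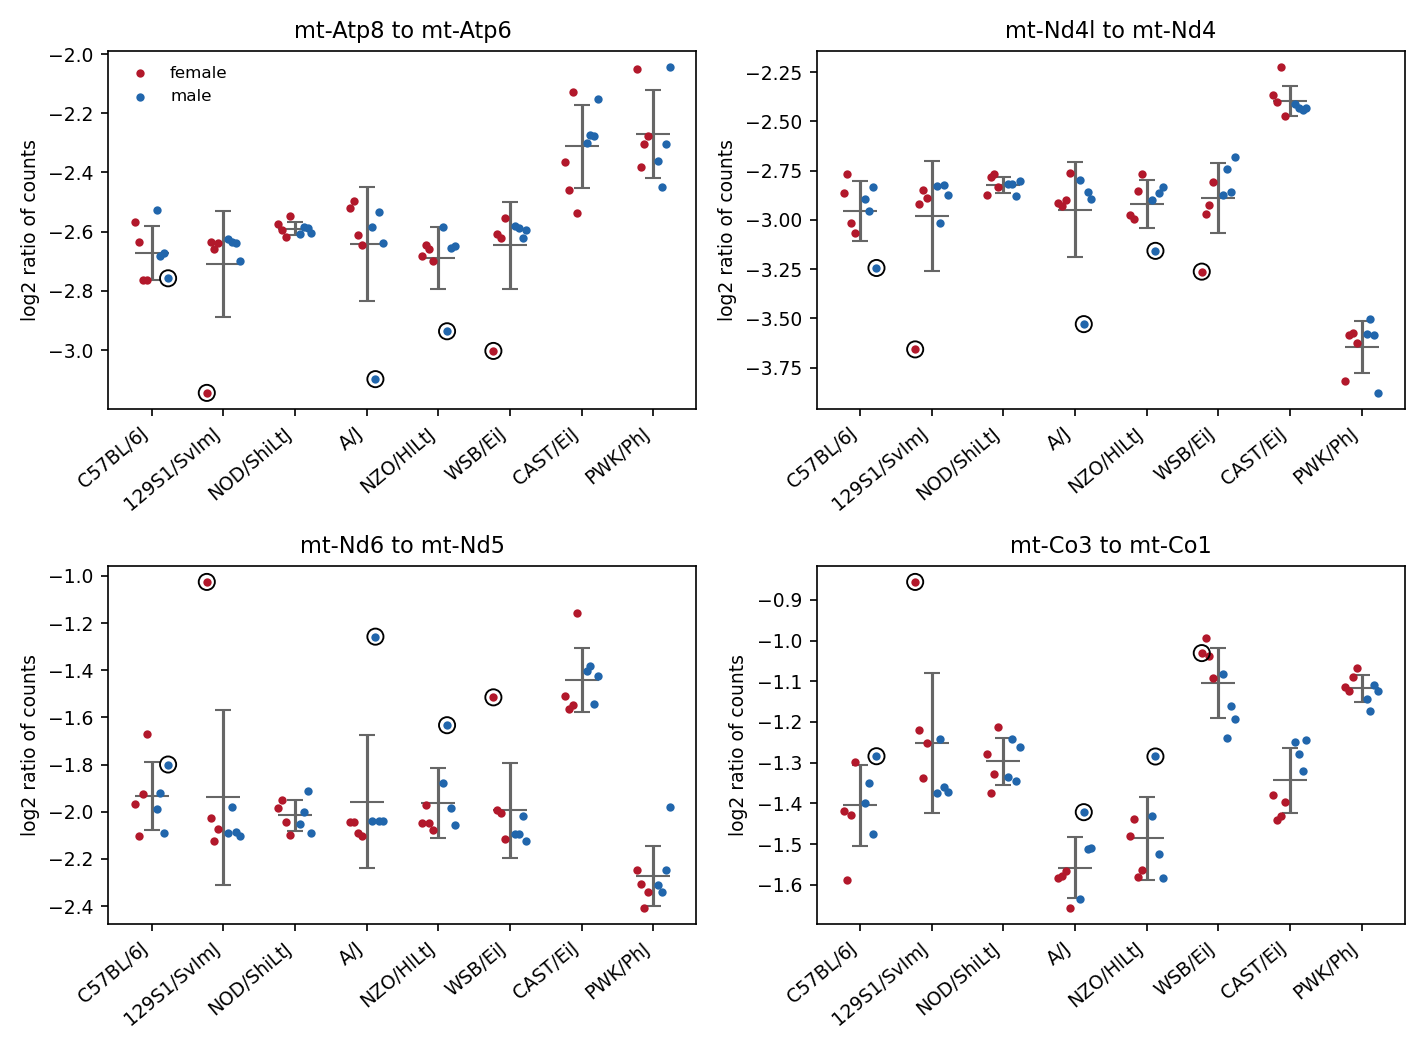
Log2 ratio of counts (y axes, not starting at 0) for 4 pairs of mitochondrial genes in the 64 libraries, by strain and sex; bars are the mean ± SD of 8 libraries and rings mark the 5 libraries that stand apart. CAST/EiJ lies above and PWK/PhJ below C57BL/6J for mt-Nd4l to mt-Nd4, and both lie above it on average for mt-Atp8 to mt-Atp6.

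Sex differences were small. Averaged over strains, 0 of 13 members differed between females and males in edgeR's test, where 0.167% of all genes did, and 0 had an unadjusted p below 0.05. The log2 differences (female minus male) ran from -0.07 to -0.03. The interaction of strain and sex was called for 0 of 13 (0.046% of all genes, 0 at an unadjusted p below 0.05), and DESeq2 also called 0 in both tests. Within CAST/EiJ 0 members were called (0.104% of all genes), while 10 had an unadjusted p below 0.05 (8.74% of all genes), with female minus male from -0.42 (mt-Nd4) to -0.09 (mt-Nd3) over the 13. CAST/EiJ females held 3.89% ± 0.154 and males 4.44% ± 0.528 of counts in the 13 genes (n = 4 each). The females of this strain carry title numbers in a separate block, so sex and block cannot be told apart. Title numbers also run strain by strain in the rest of the series, so strain and number block cannot be told apart either. The labels do not say what the numbers stand for.

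The nuclear genes that serve the mitochondrial genome were set beside these values as lists. Of 45 tested genes of the machinery that transcribes, cuts and modifies mitochondrial RNA, 43 differed among strains (all genes 89.2%). In CAST/EiJ 17 were higher and 14 lower and in PWK/PhJ 14 were higher and 11 lower, where 28.3% and 28.5%, and 28.9% and 28.8%, of all genes were. The median log2 difference of the list was -0.02 and -0.0024. Mterf3, of a family of mitochondrial transcription factors, had 32.6 ± 1.26 CPM in PWK/PhJ, 28.4 ± 3.54 in WSB/EiJ, 24.6 ± 2.33 in CAST/EiJ and 12.2 to 14.3 in the means of the other 5. Fastkd5, which takes part in cutting mitochondrial RNA where no transfer RNA marks the end, had 2.77 ± 0.331 CPM in PWK/PhJ (2.15 to 3.10) and 8.84 ± 1.48 in CAST/EiJ (6.93 to 11.2), with a log2 difference of -1.49 in PWK/PhJ (edgeR adjusted p = 1.41e-25). Nsun4, a methyltransferase of the mitochondrial ribosome, was lower in CAST/EiJ (-0.55) and higher in PWK/PhJ (0.58), and Mto1, a transfer RNA modifier, was lower in CAST/EiJ (-0.60).

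Regulators of mitochondrial biogenesis differed for 10 of 15, below the 89.2% of all genes, with none past a range of 1 (27.6% of all genes). Gabpb1, a subunit of nuclear respiratory factor 2, was higher in PWK/PhJ (log2 0.35) and Myc was lower there (-0.45). Of 72 nuclear subunits of complexes I, III, IV and V, 35 differed among strains, below the 89.2% of all genes. C57BL/6J had 15 higher and 1 lower (all genes 20.4% and 17.6%), and NOD/ShiLtJ had 0 higher and 12 lower (21.4% and 18.2%). The 15 and the 12 were near the shares of all genes. The list's median log2 difference was 0.04 in C57BL/6J and -0.06 in NOD/ShiLtJ, strains where all or most mitochondrial members were higher. Cox5b, a complex IV subunit, was higher in CAST/EiJ and PWK/PhJ, with 109.9 ± 6.31 and 112 ± 3.19 CPM against means of 40.9 to 49.7 in the other 6; the genome holds related copies of it, so its level is uncertain. Ndufa12 of complex I was lower in both (-0.31 and -0.38).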

How the data were processed

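The values are the authors' gene counts in 64 libraries, whole numbers without normalization. Per the submitters' processing notes, GRCm39 was used. No aligner, counting tool or strand setting is given in the sources used here. Symbols, lengths and transcripts came from GENCODE M21 (GRCm38), which matched 32146 of 32227 identifiers (99.75%), and no coordinates are reported. The members, lists and tests were chosen with earlier results of these data known. All members are named; of other lists, up to 4 genes with the smallest F test p are named.

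Counts were tested with edgeR 4.0.16 in R 4.3.3. filterByExpr (minimum count 10, minimum total 15) kept 17382 genes, which were scaled by TMM and fitted with 16 group means (robust quasi-likelihood, 48 residual degrees of freedom). Tests covered all 8 strains at once, 1 strain against the average of the 7 others, pairs of strains, sex and interaction, with Benjamini-Hochberg adjustment over all genes and a threshold of 0.05. Log2 ratios used a pseudocount of 0.5. Nuclear copies were found with blastn 2.17.0 (at least 90% identity over 100 bases, 141730 nuclear transcripts). Alternatives included DESeq2 1.42.0, other scalings and filters, single sexes and leaving out libraries. The edgeR steps were tested on simulated data.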

Additional observations from a re-analysis of the deposited data

Results flagged for a closer look

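A library was singled out where its gap to the nearest of the 8 libraries of its strain was large against their range (Dixon's test at 95%), for the mitochondrial share, each member's CPM and the 4 log2 ratios. This happened in 39 of 144 sets. Chance alone gives about 1 in 20 sets, and the sets are not independent, since a library that is high in 1 member is often high in others.

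C57BL/6J male 4 was the highest of its strain for the share (8.42%), mt-Nd1 (5885 CPM), mt-Co1 (24029), mt-Co2 (9215), mt-Atp6 (8707), mt-Co3 (9866), mt-Nd3 (844) and mt-Cytb (8501).

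129S1/SvImJ female 1 was the highest of its strain for the share (6.00%), mt-Nd1 (4742 CPM), mt-Co2 (8665), mt-Co3 (8346), mt-Nd3 (686) and mt-Nd6 (873), and the lowest for mt-Nd4l (356) and mt-Nd5 (1778). Its log2 ratios were lowest for mt-Atp8 to mt-Atp6 (-3.14) and mt-Nd4l to mt-Nd4 (-3.66) and highest for mt-Nd6 to mt-Nd5 (-1.03) and mt-Co3 to mt-Co1 (-0.86).

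A/J male 2 was the highest of its strain for mt-Co2 (6311 CPM), mt-Co3 (5623) and mt-Nd3 (428), and the lowest for mt-Nd4l (304.5) and mt-Nd5 (1582). Its log2 ratios were -3.10 for mt-Atp8 to mt-Atp6, -3.53 for mt-Nd4l to mt-Nd4 and -1.26 for mt-Nd6 to mt-Nd5.

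WSB/EiJ female 1 was the lowest of its strain for mt-Nd4l (509 CPM) and mt-Nd5 (2451), with log2 ratios of -3.003 for mt-Atp8 to mt-Atp6 and -1.52 for mt-Nd6 to mt-Nd5. NZO/HlLtJ male 2 had -2.94 and -1.63 for the same ratios. These 4 libraries departed from their strains in the same directions for both ratios.

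Other libraries stood out in a single measure each. These were NZO/HlLtJ male 1 for mt-Nd6 (839 CPM), WSB/EiJ male 3 for mt-Co1 (18626 CPM), CAST/EiJ female 3 for mt-Nd4l to mt-Nd4 (-2.22), and CAST/EiJ female 4 and PWK/PhJ male 4 for mt-Nd6 to mt-Nd5 (-1.16 and -1.98).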

How the results depend on the processing

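No paired analysis was possible because the titles carry no replicate number shared between groups, and libraries were numbered in accession order. A log2 fold minimum of 1 left 7 members differing among strains. The counts of higher members then fell to 0 in C57BL/6J, 129S1/SvImJ, NOD/ShiLtJ, NZO/HlLtJ and CAST/EiJ and to 1 in WSB/EiJ, and those of lower members to 0 in A/J and NZO/HlLtJ, 2 in CAST/EiJ and 4 in PWK/PhJ. Males alone gave 6 higher in NOD/ShiLtJ, 5 lower in A/J, 2 higher in NZO/HlLtJ and 5 lower in CAST/EiJ. Females alone gave 6 lower in A/J, 0 lower in NZO/HlLtJ and 0 higher in CAST/EiJ. Single-sex fits hold fewer samples, and the share of all genes called in them is not given here. These counts therefore do not show a loss particular to the members. The signs of 2 members not called in CAST/EiJ changed, mt-Atp8 in females (-0.0940) and mt-Nd6 in males (0.00076). In females alone mt-Nd6 was called lower in CAST/EiJ (-0.24, edgeR adjusted p = 0.0404). No other alternative run, DESeq2 and the scalings included, moved a count of called members by over 1.5 times, and neither did leaving out any 1 library. Of 79 calls of a member in a strain, 8 were lost when some single library was left out. In edgeR, mt-Nd4l in A/J was lost without A/J male 2 (log2 -0.19, adjusted p = 0.0707), mt-Nd5 in A/J without the same library (-0.12, 0.213) or female 1, 3 or 4, mt-Co1 in WSB/EiJ without its male 3 (0.10, 0.0815), mt-Atp8 in C57BL/6J without male 4 (0.11, 0.212), female 1 or 3 or male 1, and mt-Nd2 in CAST/EiJ without male 4. The others were mt-Co1 in A/J (4 libraries, adjusted p 0.0677 to 0.110), mt-Atp8 in WSB/EiJ (5 libraries, 0.0554 to 0.134) and mt-Co2 in NZO/HlLtJ (43 libraries, 0.0502 to 0.161). Leaving out the 5 libraries that stand apart was chosen after seeing the data. It lost the calls of mt-Atp8 in C57BL/6J (log2 0.08, adjusted p = 0.275, edgeR) and mt-Nd5 in A/J (-0.13, 0.0753). Alternatives that need the ribosomal RNAs or nuclear copies were not run, and neither were the 2 ratios with a ribosomal RNA, since these genes were not analysed here. The lowest level of any member in any library was 55.5 CPM, so counting error was small beside the spread between libraries.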
